A study of Mus musculus with 5 samples.

Results

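A pair of control immunoprecipitations was set against the lysates they came from, to describe which RNAs a bead carrying antibody holds when it is not aimed at the MKRN1 fusion. The study used R1 mouse embryonic stem cells (129X1 x 129S1, male) and RNA immunoprecipitation followed by Affymetrix arrays, a design known as RIP-chip, to find RNAs bound by MKRN1, a ring finger protein. The members are 4 of the 5 arrays, chosen by their titles, and 19937 genes, each represented by its brightest probe set with 1 gene symbol out of 34760 probe sets in all. Of these genes, 11502 lay at or above the median probe-set mean, a log2 value of 5.76, and are called kept genes below. The control RIPs were the anti-FLAG RIP from FLAG:Ctrl cells, which constitutively express the 3xN-FLAG construct under pCAGGS with no MKRN1, and the IgG RIP from FLAG:MKRN1 cells, which constitutively express the pCAGGS FLAG:MKRN1 fusion. Each was paired with the input of its own lysate, an aliquot of total RNA saved before the antibody step. The array left out of these pairs, which used anti-FLAG beads in the FLAG:MKRN1 lysate, is the MKRN1-labelled RIP. All cells were G418-resistant R1 clones grown with LIF and serum, first on embryonic fibroblasts and then on gelatin for passages meant to remove them. The number of clones per construct is not given in the sources used here, and a clone cannot be told apart from its construct.

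Background recovery is the reason a RIP needs controls. Protein G beads, antibody and tube walls hold some RNA whatever the bait, and washing removes it unevenly. Transcripts differ in length, in the proteins that coat them, in whether ribosomes engage them and in whether they sit in the cytosol, at membranes or in the nucleus, and a mild detergent lysate does not release these pools equally. Per the labels' protocols, each RIP used 4 mg of protein, ran for 1 h and was washed 6 times, and 10 ng of RNA from each RIP or input went into cDNA. The arrays therefore compare the make-up of equal masses of RNA, and a value above input is a larger share of the recovered RNA, not a yield.

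Across the kept genes the control RIPs and inputs were close to each other. Pearson's r over kept genes was 0.990 between both control RIPs, 0.980 between both inputs, 0.984 between the anti-FLAG RIP of FLAG:Ctrl and its input, and 0.983 between the IgG RIP and its input. The markers of the labelled cell type were present: 12 of 12 embryonic stem cell markers, Pou5f1, Nanog and Sox2 among them, were at or above the level filter on all 4 arrays. Of 12 fibroblast feeder markers on the array 5 were kept, and of all 12, 1 lay above input in both pairs and 4 lay below. The log2 of their summed linear signal was 10.06 and 10.00 in the control RIPs against 10.57 and 10.06 in the inputs. Thy1, the brightest of the 12 on all 4 arrays, weighs most in these sums. It had 8.84 in the anti-FLAG RIP against 9.88 in the FLAG:Ctrl input, while S100a4 went the other way. Between the lysates, fewer cells of a type and less RNA per cell cannot be told apart in bulk RNA. Mkrn1 itself lay at 12.20 in the FLAG:Ctrl RIP against 11.80 in its input, and at 11.99 in the IgG RIP against 11.71 in the other input. It was thus not higher in the input labelled as overexpressing it, and whether its probes lie in the transgene is not known, so the lysate labels were taken as given. Between the inputs 192 genes (1.67%) were at least 2-fold apart, and between the control RIPs 52 (0.452%).

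Both control RIPs departed from input in partly the same way. The differences, RIP minus input on the log2 scale, had an SD over kept genes of 0.32 in the FLAG:Ctrl pair and 0.33 in the FLAG:MKRN1 pair, with medians of 0.01 and 0.00. The pairs share no array, and over the 11502 kept genes their differences had a Pearson's r of 0.487 and a Spearman's rho of 0.525. These are descriptions across genes, which are not independent replicates. Both differences were above 0 for 4229 genes, 36.8% of those kept, and below 0 for 2156, 18.7%. Exact equality with input within 1e-06 occurred for 15.1% of genes in the FLAG:Ctrl pair and 17.2% in the FLAG:MKRN1 pair, and in both for 494 genes (4.29%), so the signs do not add up to all genes.

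At 2-fold (a log2 difference of 1) the shared set was small. In the FLAG:Ctrl pair 109 genes were at least 2-fold higher in the RIP (0.948% of kept genes) and 43 lower (0.374%), and in the FLAG:MKRN1 pair 152 were higher (1.32%) and 53 lower (0.461%). Of these, 21 genes were higher in both pairs (0.183%) and 8 lower in both (0.0696%), while 3 went opposite ways (0.0261%). The 21 genes are 19.3% of the FLAG:Ctrl pair's higher genes and 13.8% of the FLAG:MKRN1 pair's. The direction carried over more widely than the size: 94 of the 109 higher genes of the FLAG:Ctrl pair also lay above input in the FLAG:MKRN1 pair (86.2%, against 50.7% of all kept genes), with a median difference there of 0.53. For lower genes it was 33 of 43 (76.7%, against 32.1%), with a median of -0.44.

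No single gene passed a test over the pairs. A limma fit with lysate as a block sets the mean difference of a gene against the disagreement between the pairs. It called 0 of 11502 genes at an adjusted p of 0.05, and its smallest adjusted p was 0.276. Each gene left only 1 residual degree of freedom before moderation, so a count of 0 says little about single genes. At an unadjusted p under 0.05 it held 1430 higher genes (12.4%) and 472 lower genes (4.10%). The unpaired limma fit and the limma fit with no trend in its variance prior also called 0 genes, with 986 and 1474 higher and 404 and 457 lower genes at that unadjusted level. The pairs differ in antibody as well as in lysate, and nothing in the labels says that they were repeated cultures, so this spread holds all of these sources. Every difference below is therefore a measured value in both pairs, not a tested change.

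**Figure D1:**
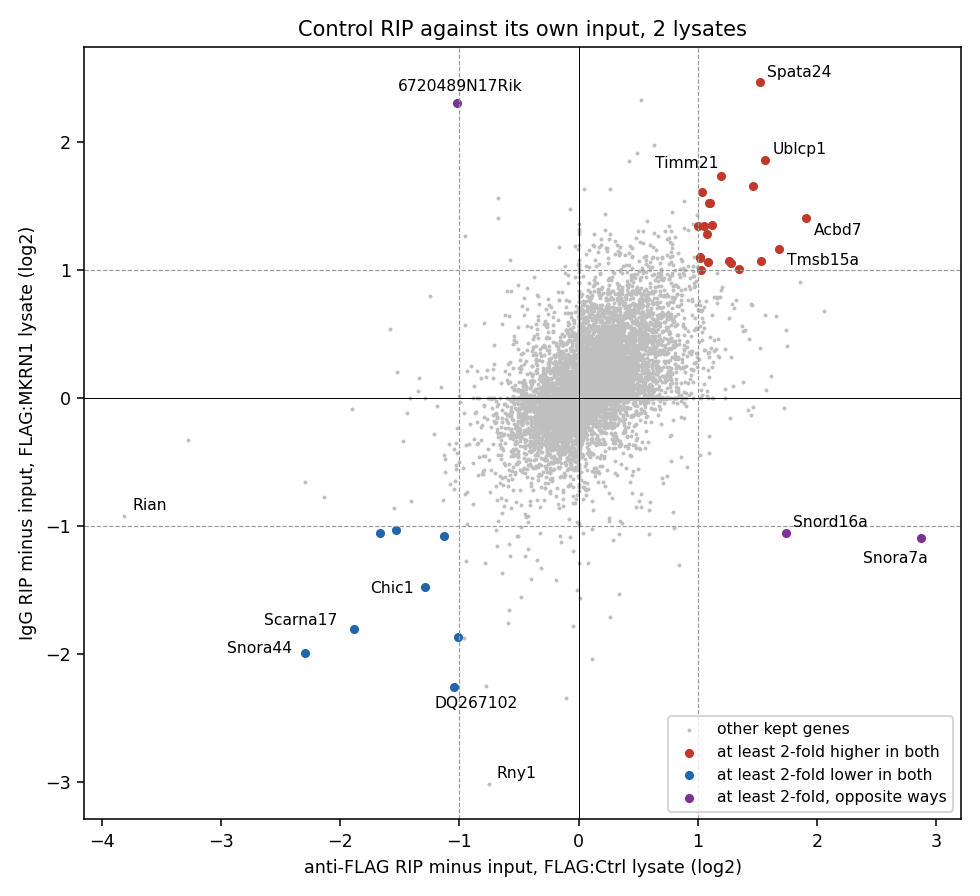
Each point is 1 of 11502 kept genes. The horizontal axis is the anti-FLAG RIP minus input of FLAG:Ctrl lysate and the vertical axis the IgG RIP minus input of FLAG:MKRN1 lysate, both in log2 units, with dashed lines at 2-fold. The cloud runs along the diagonal, with 21 genes beyond 2-fold at upper right, 8 at lower left and 3 in the opposite corners.

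The directions differed by coding status. Of 10923 kept genes whose platform annotation holds a protein-coding RefSeq accession, 247 were at least 1.5-fold higher in both pairs (2.26%) and 31 lower (0.284%). Of 302 with noncoding RefSeq accessions only, 1 was higher (0.331%) and 12 were lower (3.97%). These 12 were 7 small nucleolar or Cajal body RNAs, 4 Y or ribonuclease RNAs and DQ267102, while no microRNA gene was 1.5-fold lower in both pairs, so the count rests on small structured RNAs. Over all kept genes the counts were 252 higher (2.19%) and 49 lower (0.426%). At 2-fold, all 21 higher genes were protein-coding by this annotation. So were 10923 of all 11502 kept genes, and that count therefore says little about the higher genes. Of the 8 lower genes 3 were coding, 3 were noncoding, and the others had no RefSeq accession there.

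The score used to order genes is the smaller in size of the 2 paired differences, and 0 where they disagree in sign. Ublcp1, which encodes a nuclear phosphatase acting on the proteasome, had the highest score, 1.56. Its log2 value was 6.31 in the anti-FLAG RIP against 4.74 in the FLAG:Ctrl input, and 7.05 in the IgG RIP against 5.19 in the FLAG:MKRN1 input. Both inputs lay below the level filter, so the folds of 2.95 and 3.63 start from dim signal, and with values under the filter raised to it the score was 0.55. Spata24, named for its part in spermatogenesis, was well above the filter throughout. It had 8.42 in the anti-FLAG RIP against 6.90 in input, and 8.92 in the IgG RIP against 6.45 in input, folds of 2.86 and 5.53, and both RIPs exceeded both inputs.

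Mob2, which encodes a regulator of NDR kinases, had 7.19 in the anti-FLAG RIP against 5.73 in input, and 6.96 in the IgG RIP against 5.30 in input. Acbd7, a gene for an acyl-CoA binding domain protein, had 7.25 against 5.34 in the FLAG:Ctrl pair and 7.80 against 6.39 in the FLAG:MKRN1 pair. Tmsb15a, which encodes an actin-sequestering beta-thymosin, had 6.67 in both control RIPs against 4.99 in the FLAG:Ctrl input and 5.51 in the FLAG:MKRN1 input. For these genes, too, both RIPs lay above both inputs. Both inputs of Mob2 and Tmsb15a and the FLAG:Ctrl input of Acbd7 were under the level filter.

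Timm21, Tomm5, Coa8, Mterf3 and Uqcc1 encode proteins that act in the mitochondrion. Timm21, a component of the inner membrane import machinery, had 10.34 in the anti-FLAG RIP against 9.14 in input, and 8.99 in the IgG RIP against 7.25 in input. Here the lysates differed by more than the RIP did, since the FLAG:Ctrl input exceeded the IgG RIP. Tomm5, a small subunit of the outer membrane translocase, had 11.27 against 10.22 in the FLAG:Ctrl pair and 11.03 against 9.69 in the FLAG:MKRN1 pair, with no overlap of RIPs and inputs. Coa8, a cytochrome oxidase assembly factor gene, had differences of 1.12 and 1.36. Mterf3, which encodes a regulator of mitochondrial transcription, had 1.02 and 1.10, and Uqcc1, needed for assembly of respiratory complex III, 1.35 and 1.01.

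Cenpw, Zwint, Katna1 and Dscc1 act on chromosomes or the spindle. Cenpw, a centromere protein gene, had 8.81 in the anti-FLAG RIP against 7.28 in input, and 9.09 in the IgG RIP against 8.02 in input. Zwint, a kinetochore gene, had 9.41 against 8.39 and 9.33 against 8.23, so that the pairs differed little. Dscc1, part of a clamp loader used in sister chromatid cohesion, had differences of 1.28 and 1.05, and Katna1, the catalytic katanin subunit that severs microtubules, 1.26 and 1.07. Dppa4, a developmental pluripotency associated gene, lay just inside the limit, with 10.43 against 9.41 in the FLAG:Ctrl pair and 10.61 against 9.61 in the FLAG:MKRN1 pair.

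The remaining higher genes were Gtf2b, encoding the general transcription factor TFIIB, with differences of 1.09 and 1.52, Rpap3, a co-chaperone of RNA polymerase assembly, with 1.00 and 1.35, Izumo2 with 1.03 and 1.61, Zfp941 with 1.09 and 1.07, 3110009E18Rik with 1.10 and 1.53, and 1700019A02Rik with 1.08 and 1.29. The last had 5.91 in the anti-FLAG RIP against 4.84 in input, and 8.43 in the IgG RIP against 7.15 in input, so the lysates stood farther apart than RIP and input. Its score of 1.08 rests on the dim FLAG:Ctrl input: it was 0.158 with values under the filter raised to it and 0 with crossed pairing, in which each RIP is set against the input of the other lysate. That of Izumo2 was 0.67 with such values raised, and those of Timm21 and Zfp941 were 0 with crossed pairing. Both control RIPs exceeded both inputs for 18 of the 21 genes, while 23.8% of all kept genes had that order. The choice of genes with each RIP 2-fold above its own input favours that order, so it adds no support. Of the 21, 6 had at least 1 of the 4 values under the level filter. With such values raised to it, 17 of the 21 remained at least 2-fold higher in both pairs.

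Among lower genes the farthest by score were Snora44 and Scarna17, small RNAs that guide RNA modification. Snora44, an H/ACA small nucleolar RNA, had 6.36 in the anti-FLAG RIP against 8.65 in the FLAG:Ctrl input, and 7.22 in the IgG RIP against 9.21 in the FLAG:MKRN1 input, folds of 4.90 and 3.97 below input. Scarna17, a small Cajal body RNA of the kind that guides modification of spliceosomal RNA, had 8.86 against 10.74 in the FLAG:Ctrl pair and 9.55 against 11.35 in the FLAG:MKRN1 pair. Its differences, -1.88 and -1.80, were nearly equal. DQ267102, listed as a small nucleolar RNA in the RefSeq gene table, had 7.16 against 8.20 and 7.68 against 9.93. Its score, -1.04, was smaller in size than that of Chic1, -1.29.

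The other lower genes were Chic1, Cacng7, Orai2, Gdap10 and 0610040B10Rik. Chic1, which encodes a membrane-associated protein, had 7.18 in the anti-FLAG RIP against 8.47 in input, and lay 1.48 below the input value of 8.48 in the IgG RIP. Cacng7, a gene for an auxiliary subunit related to calcium channels, had differences of -1.66 and -1.05, and Orai2, encoding a store-operated calcium channel, -1.53 and -1.03, with both RIP values of Orai2 under the filter. Gdap10 had -1.01 and -1.87, and 0610040B10Rik -1.13 and -1.08. Both RIP values of 0610040B10Rik, 5.67 and 5.22, were also under the filter, and with such values raised to it the score was -0.54. In that setting 6 of the 8 lower genes remained at least 2-fold lower in both pairs. Both control RIPs lay below both inputs for all 8 genes, an order that 11.3% of all kept genes had and that the choice of these genes favours.

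**Figure D2:**
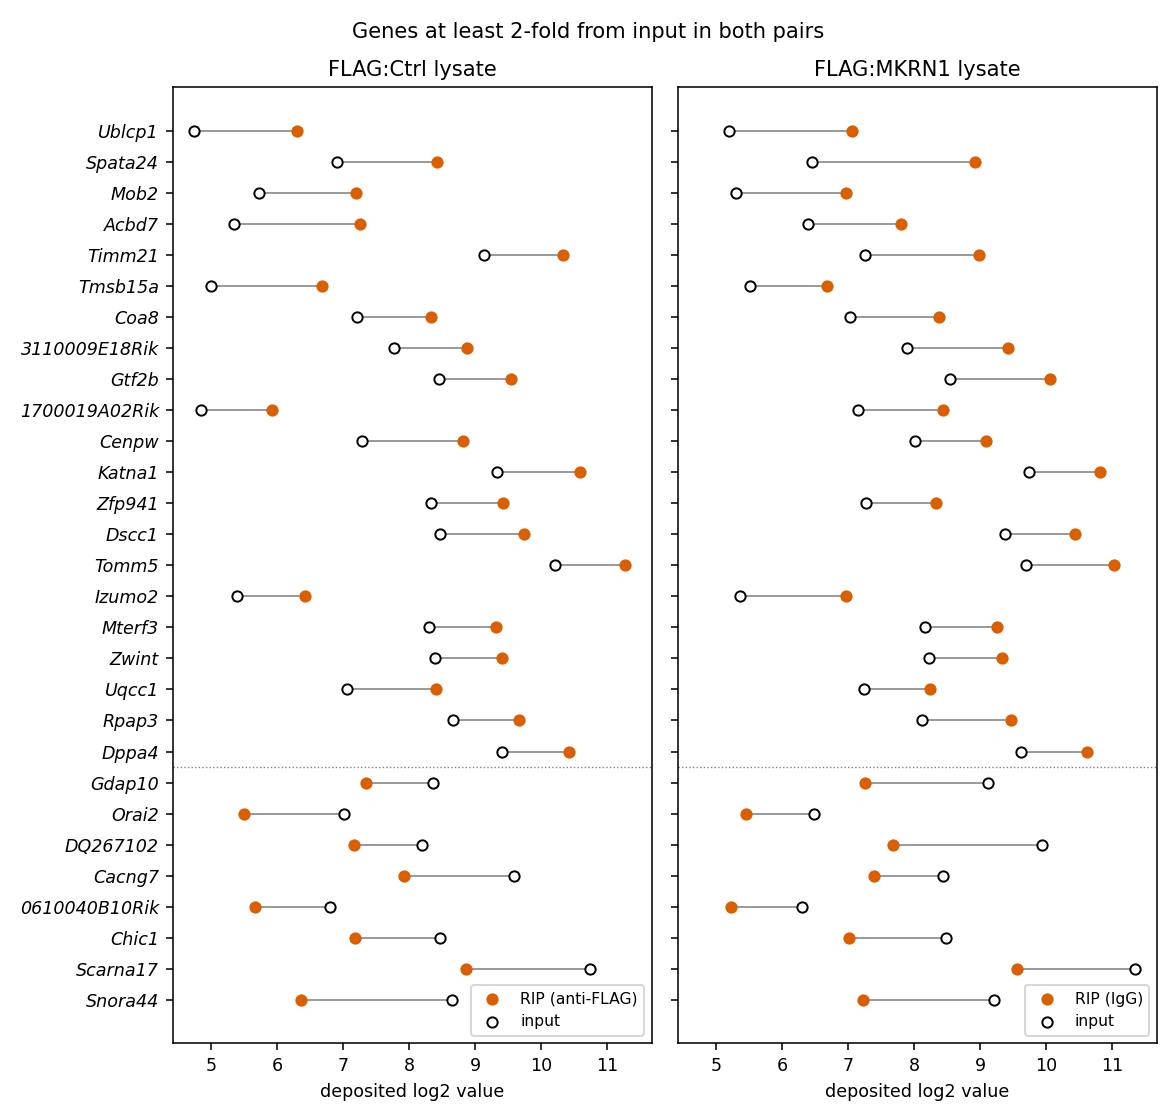
Deposited log2 values of the 29 genes at least 2-fold from input in both pairs, ordered by score. In each panel the filled point is the RIP and the open point the input of the same lysate. The 21 genes above the dotted line have the RIP at the right of input in both lysates and the 8 below it have it at the left.

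The 2-fold limit had close neighbours on either side. Rp9 had 0.99 and 1.02, Plgrkt 0.99 and 1.43, and Fam229b 1.16 and 0.97, all just outside on the higher side. On the lower side, Rny3 had -0.96 and -1.87, Fam53c -0.94 and -1.27, and Alg3 -0.94 and -0.98. Of the 29 genes, 26 had a single probe set. The second probe set of Dppa4 had smaller differences, 0.18 and 0.59, that of Chic1 had -0.27 and 0.00, and that of Orai2, under the level filter, 0.00 and 0.17. With the median over probe sets, the scores were 0.60 for Dppa4, -0.74 for Chic1 and -0.43 for Orai2.

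Scaling moved the balance of higher and lower genes. Of the 2-fold calls, 72.4% were higher with the deposited values. That share was 40% when array medians were made equal, 54.5% after quantile normalization, 45% once the trend with signal level was taken out, and 52.4% with crossed pairing. The values themselves moved with signal level. In the lowest of 8 equal bins of mean signal the median differences were 0.00 in both pairs, and in the highest they were 0.12 in the FLAG:Ctrl pair and 0.13 in the FLAG:MKRN1 pair. All 29 genes stayed on their side of input under the 3 rescalings. Their choice at 2-fold nearly fixed this, since the pair medians after rescaling lay between -0.095 and 0.030. Of the 29, 16 remained at least 2-fold away with medians made equal, and 17 after quantile normalization or with the trend taken out. With crossed pairing 26 kept their side and 12 remained at least 2-fold away.

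The MKRN1-labelled RIP shares the FLAG:MKRN1 input with the IgG pair, so its differences are given only beside the others. Relative to that input it had 284 genes at least 2-fold higher (2.47%) and 634 lower (5.51%). Its median difference over all kept genes was 0.00, and the shared input favours the same sign as in the IgG pair. Of the 21 genes higher in both control RIPs, 9 were also at least 2-fold above input there and 19 were above it, with values from -1.94 for Timm21 to 3.61 for Tmsb15a. Of the 8 lower genes, 4 were at least 2-fold below input and 7 were below it, the exception being Snora44 at 0.12, against -1.99 in the IgG RIP of the same lysate.

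Groups of genes were compared by the median of their members' differences and by how many members lay on the same side of input in both pairs. For all kept genes these shares were 36.8% above and 18.7% below. Counts at 1.5-fold in both pairs stand against 2.19% higher and 0.426% lower over all kept genes. Those shares depend on signal level. In the lowest of 8 equal bins of mean signal, 50.4% of genes equalled input in at least 1 pair, and in the highest 8.9%. The lists were not matched for level, so a list of bright genes differs from all kept genes in that too. limma called 0 members of every list at the adjusted p above. The sizes of these medians depended on scaling. Over the alternatives the median of the mean of both pairs was as low as 0.19 for mitochondrial ribosomal protein genes and 0.16 for proteasome genes. It was as low as 0.10 for chaperonin, 0.07 for replication and 0.10 for repair genes. For cell cycle genes it was as low as 0.05, for endoplasmic reticulum genes 0.04 and for oxidative phosphorylation genes 0.02. Mitochondrial ribosomal protein genes, translated in the cytosol and imported, had the highest median of the mean of both pairs among the lists, 0.32. Their medians were 0.25 in the FLAG:Ctrl pair and 0.34 in the FLAG:MKRN1 pair, and 60 of 77 (77.9%) lay above input in both pairs against 5 below. Mrpl1 had 9.66 in the anti-FLAG RIP against 8.73 in input, and 9.60 in the IgG RIP against 8.66 in input, while Mrpl13 had differences of 0.81 and 1.26, Mrpl47 0.76 and 1.22, and Mrps25 0.78 and 1.17.

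Proteasome genes had the highest share above input among the lists. The list held 49 genes with Psm symbols, among them assembly factors of the Psmg series. Psmc3ip and Psme3ip1, also in it by symbol, are not subunit genes. Of the 49, 41 (83.7%) lay above input in both pairs and 1 below, with medians of 0.20 and 0.33 and none reaching 1.5-fold in both. Psmd6, a lid subunit of the regulatory particle, had 11.80 in the anti-FLAG RIP against 11.23 in input, and 11.88 in the IgG RIP against 11.11 in input, and Psmc2, a base ATPase, had differences of 0.54 and 0.68. Chaperonin and heat shock genes showed 15 of 19 above (78.9%) and 0 below, with medians of 0.20 and 0.22, led by Cct7 at 0.62 and 0.54 and Cct3 at 0.45 and 0.74, subunits of the TRiC folding chamber.

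Genes that duplicate and guard the genome lay mostly above input as well. The licensing and fork list had medians of 0.23 and 0.19, with 33 of 44 above in both pairs (75%), 4 below, and 4 at least 1.5-fold higher. Those 4 were Gmnn, the licensing inhibitor geminin, with 11.12 against 10.20 and 11.14 against 9.83, the clamp loader genes Rfc3 (0.93 and 0.86) and Rfc4 (0.86 and 0.85), and Rpa3, a single-strand binding subunit gene (0.87 and 1.07). In the repair and checkpoint list 33 of 48 lay above (68.8%) and 4 below, with medians of 0.25 and 0.15. Exo1, an exonuclease of mismatch repair, had differences of 1.44 and 0.74, Xrcc6, encoding the Ku70 end-binding protein, 0.97 and 0.53, and Fancl, a Fanconi ligase gene, 0.69 and 0.93. Cell cycle genes had 27 of 42 above (64.3%) and 4 below, with medians of 0.12 and 0.20, and the kinetochore gene Nuf2 was farthest at 0.78 in each pair.

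Further coding lists had medians above 0 in both pairs. Nuclear-encoded oxidative phosphorylation genes, ATP synthase genes among them, had medians of 0.07 and 0.20, with 50 of 80 above in both pairs (62.5%) and 9 below. Endoplasmic reticulum folding genes had 0.13 and 0.15, with 18 of 27 above (66.7%) and 4 below, Creld2 being farthest at 0.72 and 0.94. Splicing factors had 0.11 and 0.10, with 30 of 48 above and 4 below, though their median turned to -0.0046 with the level trend removed. Genes of meiosis and the male germline had 0.14 in each pair, with 27 of 55 above (49.1%) and 10 below. Their median of the mean of both pairs fell to 0 with no filter on dim probe sets. Of the 55, 6 were at least 1.5-fold higher, against 2.19% of all kept genes. Among them were Spata24, Cyct, which encodes the cytochrome c of testis, at 1.86 and 0.91, and the meiotic gene Tex11 at 0.80 and 0.88.

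Cytosolic ribosomal protein genes, short and heavily translated, had medians of 0.05 in both pairs, with 37 of 60 above and 14 below, and the median of the mean of both pairs, 0.06, turned to -0.04 when arrays were centred and to -0.05 with the level trend removed. The pluripotency network had 0.13 and 0.03, with 12 of 29 above and 8 below, and its mean of pairs turned negative under all 3 rescalings. Within it Dppa4 and Nr0b1 (0.68 and 0.95) were at least 1.5-fold higher, while Nanog had 10.79 in the anti-FLAG RIP against 11.01 in input, and 10.35 in the IgG RIP against 10.86 in input. Translation factors (33 of 59 above, 9 below), chromatin genes (24 of 48 above, 7 below), glycolysis genes (14 of 26 above, 4 below) and Zfp genes (103 of 257 above, 36 below) had medians between 0.04 and 0.14 in each pair, and each turned negative under at least 1 rescaling.

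**Figure D3:**
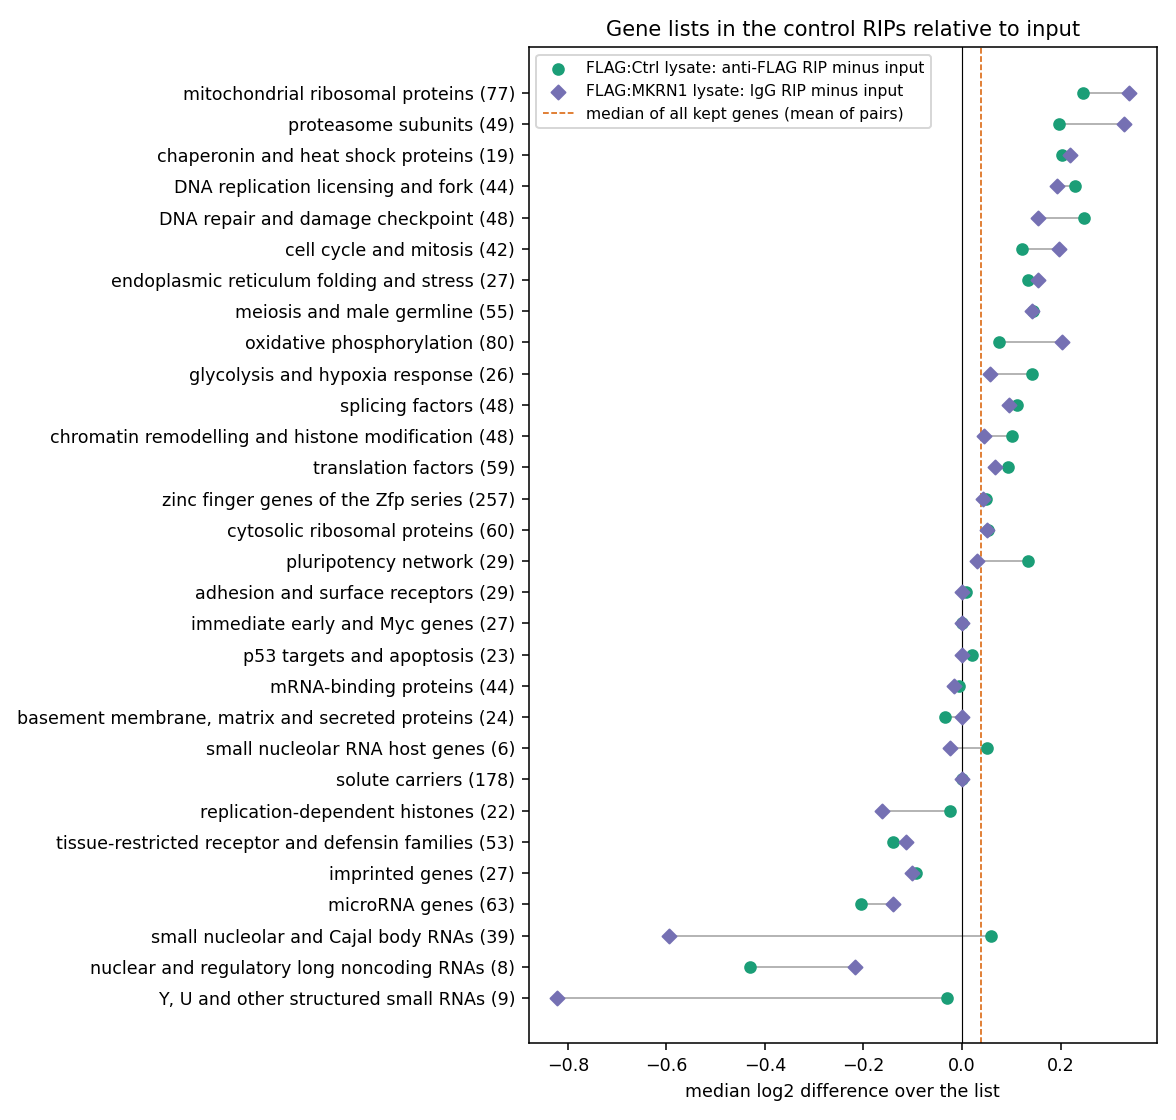
Median log2 difference, RIP minus input, of each gene list with at least 5 kept genes, apart from the 4 lists added later, in the FLAG:Ctrl pair (circles) and the FLAG:MKRN1 pair (diamonds), with the number of kept genes in brackets and a dashed line at the median of the mean of pairs over all kept genes. Mitochondrial ribosomal protein and proteasome genes lie at the right in both pairs, while small nucleolar and Y RNAs lie far apart between pairs.

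Among RNAs that make no protein the pairs did not always match. The small nucleolar and Cajal body RNAs, which guide chemical modification of ribosomal and spliceosomal RNA in the nucleus, had medians of 0.06 in the FLAG:Ctrl pair and -0.60 in the FLAG:MKRN1 pair. In the FLAG:Ctrl pair 21 of 39 lay above input and 18 below, and in the FLAG:MKRN1 pair 4 lay above and 33 below. Of the 39, 15 (38.5%) lay below input in both pairs, 2 (5.13%) above, and 7 were at least 1.5-fold lower in both. Snora31 had 7.32 in the anti-FLAG RIP against 8.87 in input, and 8.51 in the IgG RIP against 9.37 in input, and Snora74a had differences of -1.41 and -0.80. The inputs differed here: the median of FLAG:MKRN1 input minus FLAG:Ctrl input was 0.56 for the class, and that of the IgG RIP minus the anti-FLAG RIP was 0.10. How far the gap between pairs comes from the inputs was not tested.

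Among structured RNAs, Y RNAs and the RNAs of ribonucleases lay below input. Rny3, a Y RNA bound by the Ro60 protein, had 9.43 in the anti-FLAG RIP against 10.40 in input, and 8.22 in the IgG RIP against 10.09 in input. Rny1 had 7.05 against 7.80 and 5.66 against 8.67, a much smaller difference in the FLAG:Ctrl pair (-0.75) than in the FLAG:MKRN1 pair (-3.02). Rmrp, the RNA of the ribonuclease MRP, had differences of -0.59 and -1.76, and Rpph1, the RNA of ribonuclease P, -0.64 and -1.36. These 4 were all of the list's members at least 1.5-fold lower, of 9 kept. Rn7sk, which holds the elongation factor P-TEFb inactive, had -0.03 and 0.00, and Rnu3a and Rnu12 lay above input in both pairs.

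MicroRNA genes lay below input by small amounts. Medians were -0.20 in the FLAG:Ctrl pair and -0.14 in the FLAG:MKRN1 pair. Of 63 kept, 43 (68.3%) lay below input in both pairs, 0 above, and 0 at least 1.5-fold lower. Against the FLAG:MKRN1 input the MKRN1-labelled RIP had a median of 0.33 for the same genes. That array had a higher median (5.88 against 5.77 for the input) and a smaller SD (2.19 against 2.28). Its values also entered the mean used by the level filter. With no filter, the class median of the mean of both control pairs moved from -0.19 to -0.06. An array signal of this kind cannot tell a precursor from its mature product, nor either from a host transcript. The genes with the largest scores in size were Mir150, Mir6516, Mir692-1 and Mir326. Mature sequences are shown for them, and for Mir346 and Mir330, added after their values were seen, the second because its 5p arm has the seed of miR-326-3p. Mir383 and Mir30d ranked among these by score and are not shown. They are from RefSeq (GRCm38.p6), which held mature entries for 54 of the 63 genes, 5′ to 3′, with the seed (bases 2 to 8) in capitals.
miR-150-3p: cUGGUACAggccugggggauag
miR-6516-5p: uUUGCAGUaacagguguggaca
miR-692: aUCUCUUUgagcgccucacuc
miR-326-3p: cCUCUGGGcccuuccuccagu
miR-330-5p: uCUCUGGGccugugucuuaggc
miR-346-5p: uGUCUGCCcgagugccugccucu
The seeds of miR-326-3p and miR-330-5p are the same and the others differ. On the plus strand lie miR-150-3p (chr7:45121798-45121819), miR-6516-5p (chr11:117077370-117077391), miR-326-3p (chr7:99552328-99552348), miR-330-5p (chr7:19181486-19181507) and miR-346-5p (chr14:34894624-34894646), and on the minus strand miR-692 (chr17:6895259-6895279). Mir150 had 5.80 in the anti-FLAG RIP against 6.21 in input, and 5.90 in the IgG RIP against 6.42 in input. Mir326 had 6.33 against 6.73 and 6.27 against 6.64, and Mir6516, which stood higher in FLAG:MKRN1 lysate, had 7.95 against 8.36 and 8.68 against 9.48. Mir692-1 had differences of -0.39 and -0.62 and Mir346 of -0.39 and -0.35. Mir330 differed between pairs, with 5.77 against 7.24 in the FLAG:Ctrl pair and 5.93 against 6.26 in the FLAG:MKRN1 pair.

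**Figure D4:**
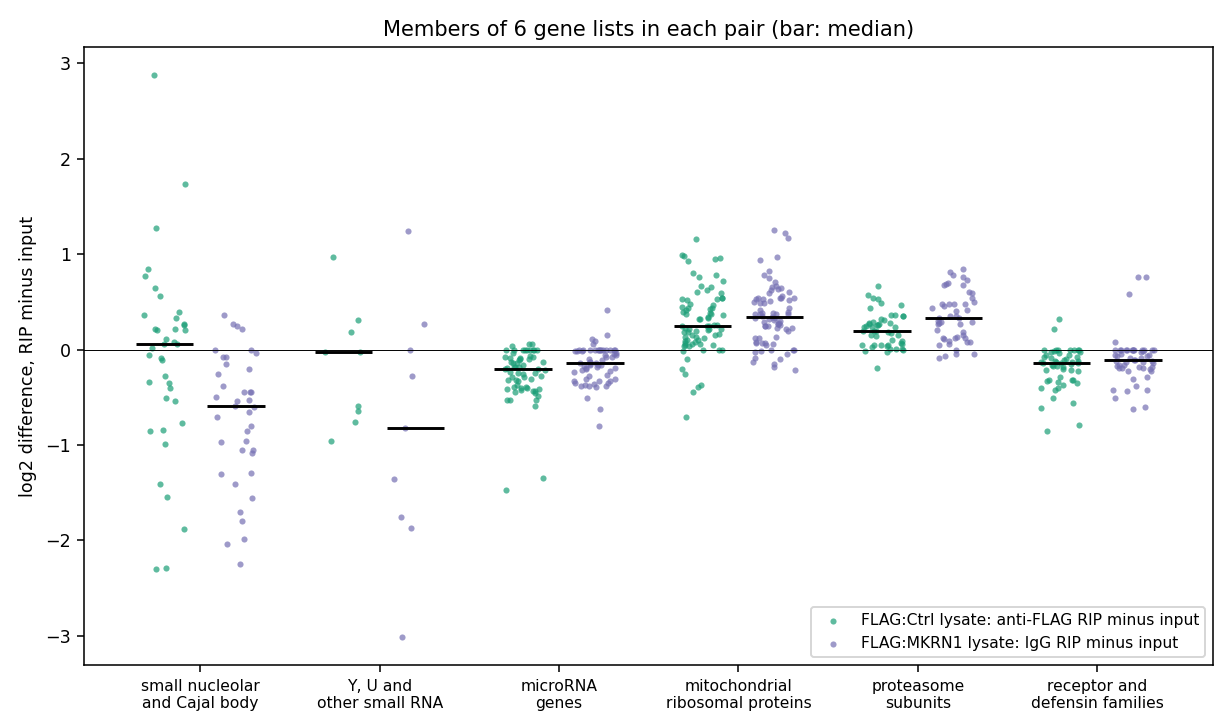
Log2 difference, RIP minus input, of every kept member of 6 gene lists, with the FLAG:Ctrl pair left and the FLAG:MKRN1 pair right in each list and a bar at the median. MicroRNA genes and receptor families sit just under 0 in both pairs, mitochondrial ribosomal protein and proteasome genes above 0, and small nucleolar RNAs are spread over several log2 units.

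Nuclear and regulatory long noncoding RNAs also lay mostly below input. Of 8 kept, 7 lay below input in both pairs and 1 above, with medians of -0.43 and -0.22. Malat1, a nuclear speckle RNA, had 11.21 in the anti-FLAG RIP against 11.70 in input, and 10.93 in the IgG RIP against 11.93 in input. Meg3 and Rian, noncoding RNAs of one imprinted domain, had differences of -1.12 and -0.58 and of -3.81 and -0.92. For Rian the FLAG:Ctrl input, at 9.24, stood far above the FLAG:MKRN1 input, at 7.35, while the RIPs were at 5.43 and 6.43, the first of these under the level filter. Spliced hosts of small nucleolar RNAs were not lower as a class: of 6 kept Snhg and Gas5 genes 3 lay above input in both pairs and 2 below.

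Replication-dependent histone genes, whose mRNAs end in a stem loop and not a poly(A) tail, had medians of -0.02 and -0.16. Of 22 kept, 11 lay below input in both pairs and 3 above. H4c6 had 10.00 in the anti-FLAG RIP against 10.59 in input, and 9.72 in the IgG RIP against 10.86 in input. H4c3 had -0.64 and -0.90, and H3c15 went the other way at 0.44 and 0.94. Near-identical histone copies may share signal, so single members are uncertain.

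Families restricted to other tissues also lay mostly below input. The list held 53 kept genes: 34 olfactory receptors (Olfr), 11 keratin-associated proteins (Krtap), 6 beta-defensins (Defb), 1 vomeronasal receptor and Mrgprd, a sensory neuron receptor gene. Of these, 31 (58.5%) lay below in both pairs and 0 above, with medians of -0.14 and -0.11, and the MKRN1-labelled RIP had a median of 0.23 against its input. The mean used by the level filter included that RIP, so dim genes high in it were more likely to be kept. Olfr1347 was farthest, with 5.40 in the anti-FLAG RIP against 5.96 in input, and 5.43 in the IgG RIP against 6.05 in input. Both of these RIP values were under the level filter, while the MKRN1-labelled RIP was at 6.80. Imprinted genes had medians of -0.09 and -0.10, with 12 of 27 below and 7 above, and Peg3, a paternally expressed zinc finger gene, was on the higher side at 0.51 and 0.73.

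Lists of membrane and secreted proteins lay close to 0. Matrix and secreted protein genes had a median of -0.04 in the FLAG:Ctrl pair and one near 0 in the FLAG:MKRN1 pair, with 9 of 24 below input in both pairs (37.5%) and 2 above (8.33%), and Nid1, a basement membrane linker gene, was farthest at -0.58 and -0.60. Solute carriers had medians of 0.00 in each pair, with 56 of 178 below (31.5%) and 33 above (18.5%), and the amino acid transporter gene Slc7a5 had -0.59 and -0.69. The Tmem series, grouped after the values were seen, had 46 of 150 below (30.7%) and 29 above (19.3%). Adhesion and surface receptor genes had 5 of 29 below and 8 above, and their mean of pairs, 0.02, turned negative under each rescaling. mRNA-binding protein genes had medians of -0.01 and -0.02, with 18 of 44 below (40.9%) and 11 above (25%). Zfp36l1, a destabiliser of AU-rich mRNAs, had 7.47 in the anti-FLAG RIP against 8.15 in input, and 6.65 in the IgG RIP against 7.80 in input. Immediate early genes (6 of 27 above, 7 below) and p53 and apoptosis genes (7 of 23 above, 4 below) had medians of 0.02 or less in size.

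Of the feeder markers the 2 farthest from input went opposite ways. Thy1 had 8.84 in the anti-FLAG RIP against 9.88 in input, and 8.25 in the IgG RIP against 8.89 in input, while S100a4 had 7.25 against 6.29 and 8.04 against 7.01. The collagen gene Col1a1 had differences of -0.18 and -0.04, and Col1a2 of -0.07 and 0.00.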

How the data were processed

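The authors deposited 1 log2 value per probe set for each of 5 arrays. That they are log2 was inferred from their range, 2.56 to 14.4. For background correction, summarisation and normalization the method is not given in the sources used. Array medians lay between 5.68 and 5.88 and no scaling was added. The platform annotation gave 1 symbol for 21640 probe sets, several for 1321 and none for 11799. Of those with 1 symbol, 21553 were matched to the RefSeq gene table (GRCm38.p6), and the others kept the platform symbol. Each gene was represented by its brightest probe set, by the 5-array mean. Arrays were paired by the lysate in the labels. Between lysates, the difference of the RIPs and that of the inputs had r = 0.404 over kept genes. limma 3.58.1 (R 4.3.3) was fitted with lysate as a block, a trend in the variance prior and Benjamini-Hochberg adjustment over 11502 genes. There were 2 arrays of each kind, and this number limits the precision. Scripts were tested on simulated data. Genes were named by rule: 14 scores at each end, 4 at each end of the difference between pairs among opposite genes, up to 4 members per list, Mkrn1 and cell type markers. Further genes past 2-fold, threshold neighbours, Mir346 and Mir330, and other list members with the fold the text counts were named after their values were seen. The members and 32 lists were chosen with earlier results of these data known, and 4 lists were added later. No mitochondrially encoded gene was kept, and the immunoglobulin and T cell receptor list had 3.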

Additional observations from a re-analysis of the deposited data

Results flagged for a closer look

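Genes going opposite ways by at least 2-fold in the pairs were 3, and with 1 array on each side the difference between pairs was not tested. Snora7a had 8.56 in the anti-FLAG RIP against 5.69 in the FLAG:Ctrl input, and 9.09 in the IgG RIP against 10.18 in the FLAG:MKRN1 input, so the FLAG:MKRN1 pair minus the FLAG:Ctrl pair was -3.96. Snord16a, with 6.89 against 5.15 and 6.38 against 7.43, had -2.79. 6720489N17Rik had 7.90 against 8.92 in the FLAG:Ctrl pair and 8.33 against 6.02 in the FLAG:MKRN1 pair, a difference of 3.33. In all 3 genes the inputs stood farther apart than the RIPs.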

How the results depend on the processing

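Every alternative limma fit run called 0 genes in either direction, the fit with no replicate block among them, at smallest adjusted p from 0.140 (filter at the 75th percentile) to 0.581 (crossed pairing). The 21 genes at least 2-fold higher became 8 with arrays centred, 12 after quantile normalization, 9 with the level trend removed and 11 with crossed pairing, of which 8, 10, 9 and 8 were among the 21. At 1.5-fold there were 252 and at 4-fold 0, and leaving out a pair gave 109 to 152. The 8 lower genes became 4 with the filter at the 75th percentile, 49 at 1.5-fold, 0 at 4-fold and 43 to 53 with a pair left out, which leaves no test. Opposite genes were 16 with crossed pairing. Of 34 list medians 21 kept their sign under all alternatives run, and that of meiosis and germline genes was 0 with no filter. Sizes also fell by over 1.5 times, as with mitochondrial ribosomal proteins (0.323 as deposited, 0.193 at the lowest) and the proteasome (0.294, 0.157). The reversals with arrays centred were cytosolic ribosomal proteins (-0.0405), translation factors (-0.00727), adhesion (-0.0801), chromatin (-0.00177), Zfp genes (-0.0259), pluripotency (-0.0512), immediate early (-0.0893) and p53 genes (-0.0913). After quantile normalization they were translation factors (-0.00646), adhesion (-0.0387), pluripotency (-0.0248), immediate early (-0.0299) and p53 genes (-0.0284). With the trend removed they were ribosomal proteins (-0.0489), translation factors (-0.0235), adhesion (-0.0401), chromatin (-0.0141), splicing (-0.00459), pluripotency (-0.0553), glycolysis (-0.000512), immediate early (-0.0568) and p53 genes (-0.0437). With the median over probe sets they were Snhg genes (0.0439) and mRNA-binding proteins (0.000925). The cause was not tested. The number of arrays and dim signal limit all values.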

Other observations

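Some gene families were grouped after the leading genes were seen. Of 23 kept Timm and Tomm genes of mitochondrial import, 16 lay above input in both pairs and 3 below, with medians of 0.19 in the FLAG:Ctrl pair and 0.14 in the FLAG:MKRN1 pair. Of 20 Cenp genes 13 lay above and 3 below, with medians of 0.18 and 0.29. Cenpq had differences of 1.56 and 0.65, and Cenpp 0.86 and 0.77. Of 14 genes of the anaphase promoting complex, 10 lay above and 1 below, with Anapc16 at 0.88 and 1.33. These lists were chosen from the values they describe and support nothing further.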
